A study of Mus musculus with 2 samples.

Results

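Peptidergic nociceptors that carry both Calca and Tac1 were followed through 2 single-cell RNA libraries of mouse dorsal root ganglia. A barcode was taken as such a cell when it held at least 5000 UMIs (unique molecular identifiers, each counting 1 captured RNA molecule) with at most 15% of them mitochondrial. The pan-neuronal genes Snap25, Stmn2, Tubb3 and Prph had to make up at least 0.4% of its UMIs together, Calca at least 0.2%, and Tac1 at least 2 UMIs. Barcodes with 3 or more Mrgprd UMIs, 10 or more Sst and Nppb UMIs, or both Th and Slc17a8 were left out, which removes other kinds of small sensory neuron. The rule found 634 cells among 3924 neurons and 19717 barcodes, 206 of them in the flox library and 428 in the cKO library. The cells were thus chosen by measured UMI counts of these genes, and the presence of Calca and Tac1 in them is not a result.

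The ganglia, taken from all axial levels at postnatal day 4, were dissociated with collagenase, dispase and papain. The flox library came from Ptges3 flox/flox mice, which carry both floxed alleles and no Cre. The cKO library came from Dhh CRE+, Ptges3 flox/flox mice, whose Cre is driven by desert hedgehog sequence and acts in the Schwann cell lineage, so neurons are not its target. The series concerns how prostaglandin E2 of Schwann cell origin bears on sensory neuron excitability, and Ptges3 encodes p23, an HSP90 cochaperone for which prostaglandin E synthase activity has also been described. How many animals were pooled in each library is not stated in the labels. With 1 library per genotype no difference between them could be tested, and every interval below is a 95% interval for counting error.

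Peptidergic nociceptors are small sensory neurons that respond to noxious heat, acids and inflammatory mediators. They release neuropeptides from their endings, among them calcitonin gene-related peptide (Calca, Calcb), substance P (Tac1), galanin (Gal) and PACAP (Adcyap1), which are packed with granins such as secretogranin II (Scg2) into dense-core vesicles. Most depend on nerve growth factor during development, and many carry the capsaicin receptor Trpv1. Prostaglandin E2 acts on such neurons through receptors encoded by Ptger1 to Ptger4, several of which raise or lower cyclic AMP, and cyclic AMP acts on genes in part through the cAMP response element, CRE.

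The sequences upstream of 3 of the peptide genes are shown because these genes mark the cells described here and differed between the libraries to unlike degrees. Each is the window of 250 bases before the RefSeq start on GRCm38.p6, on the strand of the gene, and capitals mark the CRE core TGACG or its reverse complement CGTCA.
Calca, chr7:114636358-114636607, minus strand: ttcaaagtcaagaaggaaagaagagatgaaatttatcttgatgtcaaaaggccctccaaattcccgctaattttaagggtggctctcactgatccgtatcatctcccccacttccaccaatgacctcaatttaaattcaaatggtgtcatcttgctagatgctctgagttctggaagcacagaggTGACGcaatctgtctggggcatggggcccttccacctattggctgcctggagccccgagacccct
Gal, chr19:3414545-3414794, minus strand: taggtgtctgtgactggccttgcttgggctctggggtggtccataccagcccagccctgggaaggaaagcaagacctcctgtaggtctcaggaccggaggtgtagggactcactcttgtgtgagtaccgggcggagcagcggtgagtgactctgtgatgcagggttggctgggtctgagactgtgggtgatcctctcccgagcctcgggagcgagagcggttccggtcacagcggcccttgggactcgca
Adcyap1, chr17:93198767-93199016, plus strand: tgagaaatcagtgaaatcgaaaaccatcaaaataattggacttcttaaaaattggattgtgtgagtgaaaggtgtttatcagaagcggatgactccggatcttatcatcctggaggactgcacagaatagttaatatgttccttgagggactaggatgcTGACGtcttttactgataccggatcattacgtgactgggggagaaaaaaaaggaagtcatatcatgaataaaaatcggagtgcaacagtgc
The Calca window held 1 core, whose first base lay at -65 from the start, and the window of the first of 2 listed Adcyap1 starts held 1 at -91. No core was found in the Gal window. In the windows of the same length that are not printed, Tac1 had 2 cores, the nearer at -43. The full palindrome TGACGTCA, which holds the core on both strands, was found in the window of Scg2 at -68 and in that of Cartpt at -112. Among 32851 such windows of all RefSeq starts, 1.55% held the palindrome and 17.8% held a core on either strand. These matches are a description of the letters in the windows.

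Gal and Scg2, the markers of the label that the rule did not use, were found in most of the chosen cells in both libraries. Gal, which the rule did not use, was found after thinning each cell to 5000 UMIs in 78.2% of the flox cells (95% exact Clopper-Pearson interval 71.9 to 83.6) and in 82.5% of the cKO cells (78.5 to 86.0). In non-neuronal barcodes (neuronal genes under 0.1% of UMIs), which should lack it, the thinned share was 0.62% and 1.96%, and without thinning 90.8% and 90.7% of the nociceptors had a Gal UMI. Scg2 was found in 84.0% and 68.0% of thinned cells, against 0.52% and 0.98% of non-neuronal barcodes. These shares set the cells apart from non-neuronal barcodes and not from other neurons. Chat, the defining gene of motor neurons, had 0 UMIs in the cells of either library. Of 14 listed motor and central neuron markers, 9 had 0 UMIs in the flox cells and 8 in the cKO cells. The list as a whole was not absent, with a median of 0.39% of UMIs per flox cell and 0.42% per cKO cell. Sst, which the rule limits together with Nppb, had 2 and 0 UMIs. That limit left 208 flox and 430 cKO barcodes, the same as before it.

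The cells differed in depth between the libraries. The 206 flox cells held 9375303 UMIs with a median of 44714 per cell, and the 428 cKO cells 6956101 UMIs with a median of 11251. Cells under 10000 UMIs made up 8.74% of the flox and 43.5% of the cKO cells, and the median of genes per cell was 7292.5 and 3756. Mitochondrial UMIs had a median of 1.18% in flox and 0.56% in cKO cells. The Mrgprd neurons of the same libraries had medians of 56306.5 and 39228 UMIs, so the gap between the libraries was not the same in each kind of neuron. Of 23 barcodes found in both libraries, 0 flox and 3 cKO nociceptors carried one. Xist had 1 UMI in the cells of each library and the Y-linked Ddx3y 491 and 282, so both libraries held RNA of males, and sex is not given in the labels. Levels below are in CPM, the UMIs of a gene summed over the cells and scaled by the UMI total of those cells, and ratios are the log2 of cKO over flox. As a further check on depth, levels are also given for the 53 flox and 98 cKO cells of 20000 to 40000 UMIs, a range chosen after seeing the data. This range, called matched depth below, lies below the flox median and above the cKO median. It thus takes unlike parts of the 2 libraries, and whether its cells are alike in kind was not tested.

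Peptidergic nociceptors made up 12.6% (95% exact Clopper-Pearson interval 11.1 to 14.3) of the 1630 flox neurons and 18.7% (17.1 to 20.3) of the 2294 cKO neurons. That share moved with the limits of the rule. When Calca was required at 0.4% of UMIs it was 9.08% in flox and 9.02% in cKO, and among neurons of 20000 to 40000 UMIs it was 15.3% in both. With the rule applied to counts thinned to 5000 UMIs it was 10.8% and 17.8%. More cKO cells lay near the limit of Calca. Within 25% of the limit there were 15 flox cells inside and 18 outside, and 83 cKO cells inside and 103 outside. The lowest Calca level inside was 0.2013% and the highest outside 0.1998% in flox, and 0.2003% and 0.1992% in cKO. At the Tac1 limit, 8 flox and 18 cKO cells held exactly 2 UMIs, and 20 and 24 barcodes held 1 and were left out.

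**Figure D1:**
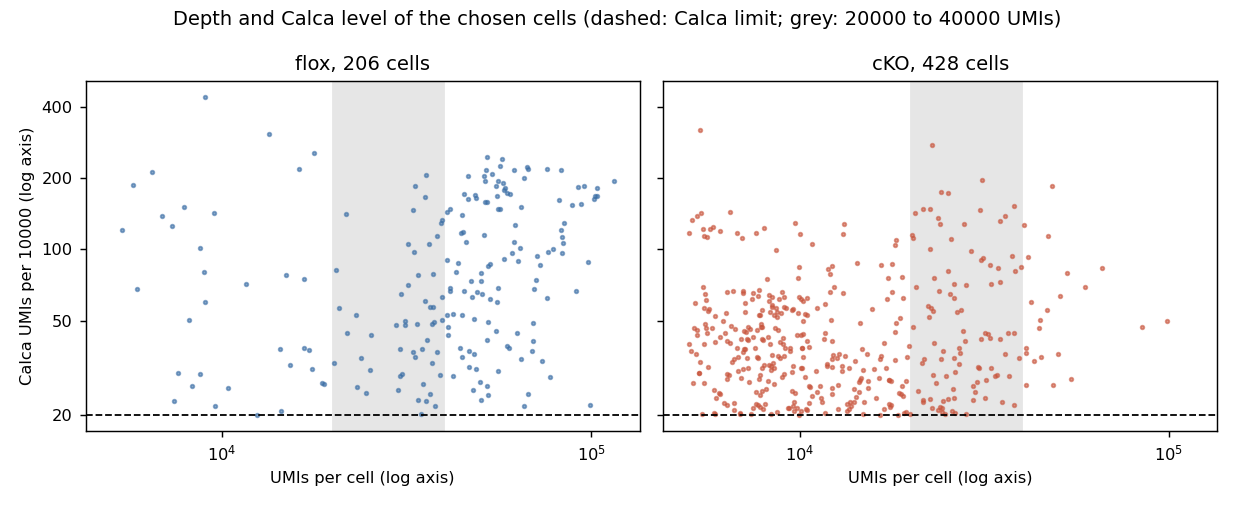
Each point is 1 peptidergic nociceptor, with its UMIs on the horizontal log axis and its Calca UMIs per 10000 on the vertical log axis, for the flox library (206 cells) and the cKO library (428 cells). The dashed line is the Calca limit of the rule and the grey band spans 20000 to 40000 UMIs. The flox cells centre near 44714 UMIs, whereas many cKO cells lie between 5000 and 10000 UMIs and close to the Calca limit.

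Summed over all cells, 5 of 10 measured peptide genes were at least 0.5 log2 lower in the cKO library, against 10.3% of all measured genes. They were Calca, Calcb, Adcyap1, Cartpt and Npb. Without Calca and Tac1, whose values chose the cells, the count was 4 of 8. In cells of 20000 to 40000 UMIs Calca, Tac1 and Gal were nearly level. Calca, the rule's own gene, stood at 10298 CPM in flox and 5417 CPM in cKO cells, a log2 ratio of -0.93 (-0.94 to -0.91), and at 6430 and 6203 CPM in the cells of 20000 to 40000 UMIs, a log2 ratio of -0.05. Tac1, for substance P, stood at 2298 and 1783 CPM over all cells (-0.37, -0.40 to -0.33) and at 2097 and 2138 CPM in that depth range (0.03, -0.03 to 0.09). Gal stood at 1157 and 1018 CPM (-0.18, -0.23 to -0.14) and in that range at 1277 and 1221 CPM (-0.06). The 3 genes were thus close between libraries in this depth range. In cells of 5000 to 10000 UMIs, of which flox had 18 and cKO 186, Calca stood at 11030 and 4830 CPM and Tac1 at 4900 and 1384 CPM. Above 40000 UMIs, with 119 flox and 22 cKO cells, Calca was again apart at 11268 and 6240 CPM, whereas Tac1 stood at 2224 and 2093 CPM and Gal at 1100 and 885 CPM.

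**Figure D2:**
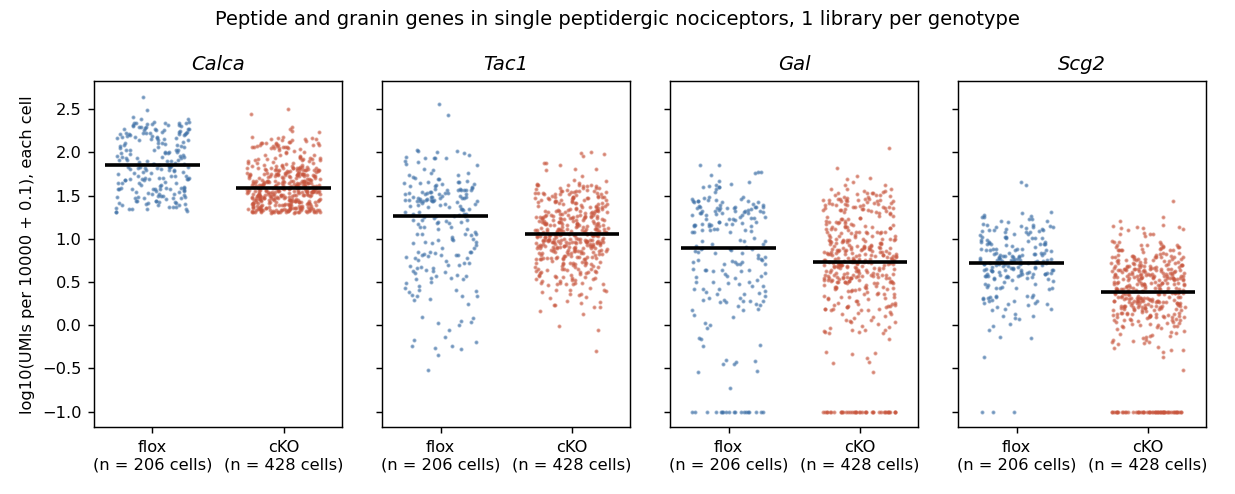
Each point is 1 cell, and the vertical axis is log10 of its UMIs per 10000 plus 0.1 for Calca, Tac1, Gal and Scg2. Black bars are medians. The median per 10000 UMIs was 70.9 in flox and 38.5 in cKO cells for Calca, 18.4 and 11.1 for Tac1, 7.72 and 5.24 for Gal, and 5.20 and 2.31 for Scg2. The 2 libraries overlap in every panel.

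Calcb, the second gene for calcitonin gene-related peptide, and Adcyap1 differed in how they depended on depth. Calcb stood at 390 CPM in flox and 223 CPM in cKO cells (-0.81, -0.89 to -0.72), and at 212 and 227 CPM in cells of 20000 to 40000 UMIs (0.10, -0.09 to 0.29). Spearman's rho of its thinned counts with the UMIs of a cell was 0.24 in flox and -0.13 in cKO cells. For Adcyap1 it was -0.20 and 0.14. The closeness of Calcb in this 1 range thus need not hold at other depths. Adcyap1 stood at 497 and 276 CPM (-0.85, -0.93 to -0.77) and stayed apart in that range at 562 and 311 CPM (-0.85, -0.99 to -0.72). Above 40000 UMIs its levels were 457 and 361 CPM (-0.34, -0.49 to -0.19). Cartpt, which encodes the CART peptides, stood at 383 and 165 CPM, or -1.22 (-1.32 to -1.12), and in the matched range at 283 and 98.8 CPM. Its UMIs sat in few cells, since 79 of 206 flox and 148 of 428 cKO cells had any, and 1 flox cell held 26.0% of the flox UMIs. Npb, for neuropeptide B, had 167 and 53 UMIs, and Nts, for neurotensin, was the peptide gene that was higher in cKO cells, with 45 UMIs in flox, 19 of them in 1 cell, and 67 in cKO. Bdnf, the neurotrophin made by part of these neurons, stood at 104 and 118 CPM.

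Over the list of 25 neuropeptide genes, 10 were measured (at least 50 UMIs over both libraries), 1 of them at least 0.5 log2 higher and 5 at least 0.5 log2 lower in cKO cells. Over all 11632 measured genes 6.07% were that much higher and 10.3% that much lower, and the median ratio was -0.07. These shares are the background for the counts of every list below. The peptide median was -0.63 over all cells and -0.02 over the 8 genes measured in cells of 20000 to 40000 UMIs. Without Calca and Tac1, whose values chose the cells, 8 genes were measured, 1 higher and 4 lower, with a median of -0.63 over all cells and, over 6 genes, -0.026 at 20000 to 40000 UMIs. Of those 6 genes 1 was higher and 2 were lower in that range, where the share of all genes is not given. With all listed genes the median was 0.10 when Calca at 0.4% was required in those cells too, which left 32 flox and 53 cKO cells. The peptide difference thus varied with the cells used. Adcyap1 and Cartpt stayed lower in cKO cells of 20000 to 40000 UMIs, and Calca was again lower above 40000. The part of depth and of the Calca limit in the difference was not tested.

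**Figure D3:**
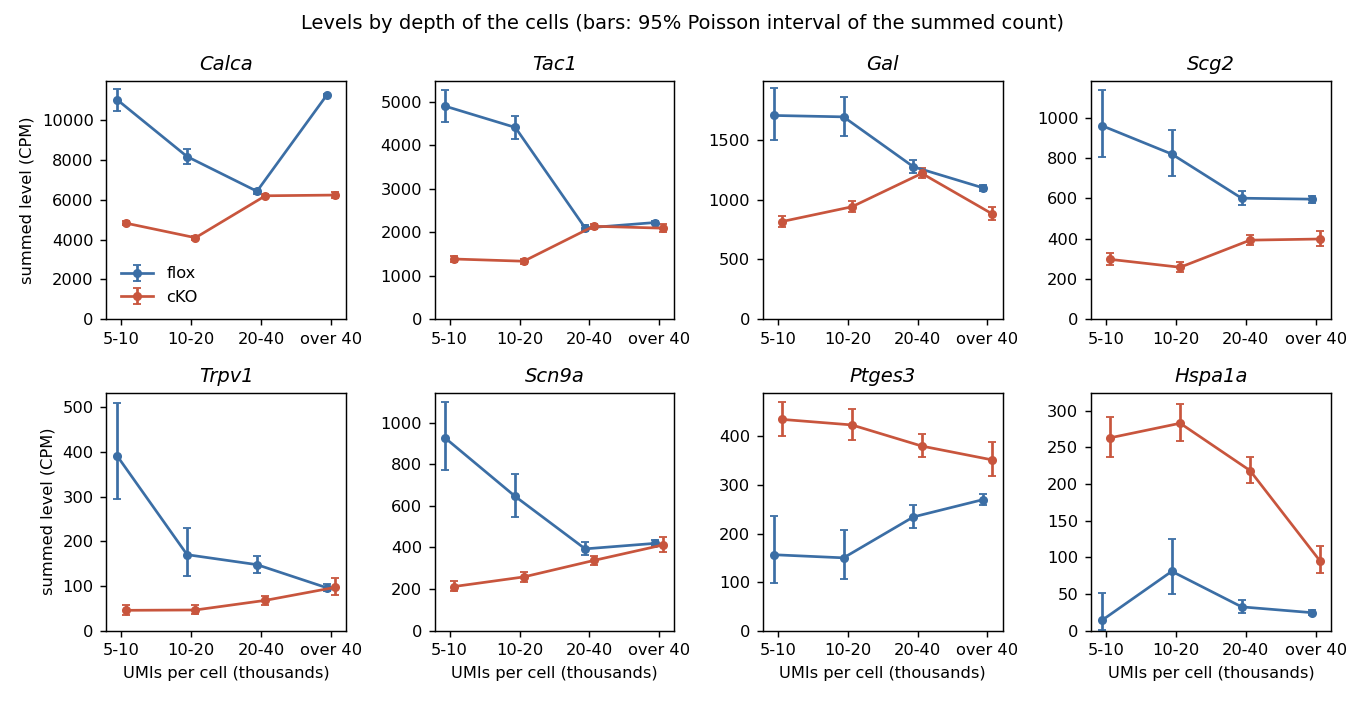
Summed levels in CPM (vertical axis, from 0) of 8 genes in cells of 5000 to 10000, 10000 to 20000, 20000 to 40000 and over 40000 UMIs (horizontal axis), flox in blue and cKO in red, with 95% Poisson intervals of the summed count. Calca, Tac1 and Gal nearly meet at 20000 to 40000 UMIs, Scg2 stays lower in cKO cells in every range, and Ptges3 and Hspa1a stay higher.

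The genes of dense-core vesicles and of prohormone processing mostly differed little, with Scg2 as the main exception. Scg2 stood at 608 CPM in flox and 341 CPM in cKO cells (-0.83, -0.90 to -0.76), at 600 and 392 CPM in cells of 20000 to 40000 UMIs (-0.61, -0.74 to -0.49) and at 595 and 398 CPM above that. It was lower in cKO cells in all 4 depth ranges. Of 20 listed genes 19 were measured, with 0 higher and 4 lower in cKO cells and a median of -0.14 (-0.30 at 20000 to 40000 UMIs). The other 3 were Ramp1, a receptor activity-modifying protein that is part of the CGRP receptor, Chga, for chromogranin A, and Ptprn, a dense-core vesicle membrane protein. Ramp1 had 83 and 19 UMIs and was at 70.4 and 58.8 CPM in non-neuronal barcodes against 8.85 and 2.73 CPM in the nociceptors. Chga stood at 174 and 120 CPM and Ptprn at 184 and 127 CPM, both at -0.54. The processing enzymes stood closer together, with Pcsk2 at 115 and 104 CPM, Cpe at 309 and 311 CPM and Pam at 87.8 and 97.8 CPM. Vgf, a secreted granin-like protein induced by neurotrophins, stood at 119 and 144 CPM (0.28, 0.16 to 0.41).

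Of 12 measured genes on a list of growth factor receptors 1 was higher and 4 were lower in cKO cells, with a median of -0.36 and, at 20000 to 40000 UMIs, -0.34. Gfra3, the receptor for artemin, stood at 163 and 92.9 CPM (-0.82, -0.95 to -0.68). In cells of 20000 to 40000 UMIs it stood at 182 and 107 CPM (-0.76, -0.996 to -0.53), and above 40000 at 156 and 72.5 CPM. Gfra3 was also lower in the other neurons of the cKO library (-0.59, -0.66 to -0.52). Il6st, the shared signalling chain of interleukin-6 type receptors, stood at 144 and 88.7 CPM over all cells and at 105 and 99.9 CPM at matched depth. Gfra1 (-0.56) and Gfra4 (-0.61), co-receptors of the same family as Gfra3, were lower as well. Ntrk2, the BDNF receptor, was the higher one at 0.66, but at matched depth it was lower, at -0.80 (-1.31 to -0.29).

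The heat and acid sensing channels were led by Trpv1. It stood at 112 CPM in flox and 63.1 CPM in cKO cells (-0.83, -0.99 to -0.67). After thinning it was found in 35.0% of flox and 21.96% of cKO cells, against 0.26% and 0.38% of non-neuronal barcodes, and without thinning in 83.0% and 41.6%. In cells of 20000 to 40000 UMIs it stood at 148 and 68.1 CPM (-1.12, -1.40 to -0.84), but above 40000 at 96.3 and 97.2 CPM (0.01, -0.29 to 0.31). In the other neurons, where it was low, its ratio was 0.21 (0.08 to 0.34). Of 18 measured genes in the list 0 were higher and 4 (22.2%) lower, against 10.3% of all measured genes lower. Their median was -0.19 (0.03 at matched depth). The other 3 lower ones were P2rx2, an ATP-gated channel (83 and 30 UMIs), Trpm2 (82 and 38 UMIs) and Trpm3 (533 and 279 UMIs), a heat-gated channel. Piezo2, the mechanically gated channel, stood at 308 and 295 CPM, and Trpa1, the irritant receptor, had 23 and 18 UMIs, too few to be measured.

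Of the sodium channels that set nociceptor excitability, the 3 main ones lay within 0.5 log2. Scn9a, for Nav1.7, stood at 428 CPM in flox and 305 CPM in cKO cells (-0.49, -0.56 to -0.41) and at 393 and 337 CPM at matched depth (-0.22). Scn10a, for Nav1.8, stood at 325 and 250 CPM (-0.38, -0.46 to -0.29) and at 256 and 274 CPM at matched depth (0.10, -0.07 to 0.27). Scn11a, for Nav1.9, stood at 175 and 164 CPM (-0.09). These levels were thus closer between the libraries at matched depth than over all cells for Scn9a and Scn10a. Of 15 measured sodium channel genes 1 was higher and 3 were lower, with a median of -0.28 (-0.27 at matched depth). Scn7a, for the channel Nax, stood at 213 and 138 CPM, or -0.63, and at -0.65 (-0.86 to -0.43) at matched depth. Scn2a was lower with 195 and 75 UMIs, and Fgf11, of the channel-binding FGF family, with 49 and 21 UMIs. Scn1a was higher, with 71 and 83 UMIs. Scn3a (-0.25) and Scn8a (-0.31) lay within 0.5 log2.

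Potassium channels were spread around a small difference, with a median of -0.18 (-0.07 at matched depth). Of 39 measured, 4 (10.3%) were higher and 8 (20.5%) lower, against 6.07% and 10.3% of all measured genes. Kcnv1, a silent Kv subunit that was high in these cells, stood at 53.3 and 28.03 CPM (-0.93, -1.17 to -0.69), yet its ratio was 0.04 in cells of 20000 to 40000 UMIs. Kcnt2, for a sodium-activated channel, had 159 and 66 UMIs (-0.84, -1.27 to -0.42). On the other side were Kcnab1, a beta subunit, with 60 and 101 UMIs, and Kcnn1, for the small-conductance channel SK1, with 62 and 97 UMIs. Calcium channels had 0 higher and 3 lower of 15 measured and a median of -0.19 (-0.02 at matched depth). Cacna2d1, which encodes the subunit bound by gabapentin, stood at 233 CPM in flox and 133 CPM in cKO cells (-0.81, -0.92 to -0.70) and at 261 and 145 CPM at matched depth, but at 212 and 203 CPM above 40000 UMIs. Cacna1e, for the R-type channel, had 235 and 71 UMIs (-1.30, -1.70 to -0.91), and Cacna1b, for the N-type channel, lay at -0.51.

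The receptors of prostaglandin E2 were sparse in both libraries. Ptger1 had 104 UMIs in flox and 53 in cKO cells, or 11.1 and 7.62 CPM (-0.54, -1.05 to -0.05). Ptger4 had 107 and 75 UMIs (-0.08, -0.53 to 0.36), Ptger3 had 61 and 40 (-0.18, -0.79 to 0.42), and Ptger2 had 15 in each and was not measured. Ptger4 was found in 5.83% of thinned flox and 4.91% of thinned cKO cells, close to 3.62% in the non-neuronal barcodes of cKO, and without thinning in 31.6% and 14.0%. Ptger1 and Ptger4 were both higher in these cells than in the other neurons, Ptger4 by 1.70 (1.35 to 2.03) in flox and 1.54 (1.13 to 1.94) in cKO, on the log2 scale. Ptgir, for the prostacyclin receptor, was better covered with 474 and 196 UMIs. It stood at 50.6 and 28.2 CPM (-0.84, -1.09 to -0.60), at 46.0 and 28.2 CPM at matched depth, and far above the Mrgprd neurons, at 2.25 and 3.25 CPM. In this list, which also holds G proteins, adenylyl cyclases, protein kinase A subunits and phosphodiesterases, 27 genes were measured, 2 were higher and 3 lower, with a median of -0.20 (0.02 at matched depth). Gnas, for the stimulatory G protein, stood at 2536 and 2201 CPM. The other 3 past 0.5 log2 were Adcy3 (117 and 50 UMIs), an adenylyl cyclase, Akap5 (45 and 57 UMIs), an anchor of protein kinase A, and Ptgdr (46 and 49 UMIs), a receptor of prostaglandin D2, which lay at -0.33 when Calca at 0.4% was required.

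Receptors that modulate transmitter release were often lower in cKO cells over all depths. Of 41 listed genes 30 were measured, 3 higher and 17 lower, where 10.3% of all measured genes were lower, and their median was -0.54. At 20000 to 40000 UMIs 18 were measured, 2 higher and 7 lower, and the median was -0.27. The share of all genes lower in that range is not given, so the 7 of 18 has no background and cannot be set against 10.3%. Oprk1, the kappa opioid receptor, had 161 UMIs in 55 flox cells and 34 UMIs in 22 cKO cells (-1.81, -2.39 to -1.27), and 22 and 23 UMIs at matched depth (-0.61, -1.52 to 0.31). Sstr2, a somatostatin receptor that marks part of the peptidergic neurons, had 158 and 55 UMIs (-1.09, -1.56 to -0.64) and at matched depth 27 and 30 (-0.52, -1.32 to 0.29). Oprm1, the mu opioid receptor, lay at 0.05 (-0.42 to 0.52). Cnr1, for the CB1 cannabinoid receptor, had 474 and 193 UMIs and lay at -0.87, and Galr1, a receptor of galanin, had 243 and 97 and lay at -0.89. The nicotinic receptor genes Chrna3 (-1.31) and Chrna6 (-1.19) were lower too, as was the serotonin-gated channel Htr3a (-0.81). On the higher side were the itch receptor genes Mrgpra3 (136 and 173 UMIs) and Mrgprx1 (67 and 94 UMIs), which mark another kind of neuron, and Ramp2, which was mostly non-neuronal at 217 and 206 CPM in non-neuronal barcodes and 8.85 and 16.0 CPM here. At matched depth Ramp2 was lower in cKO cells, at 20.4 and 12.1 CPM (-0.76, -1.49 to -0.03).

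**Figure D4:**
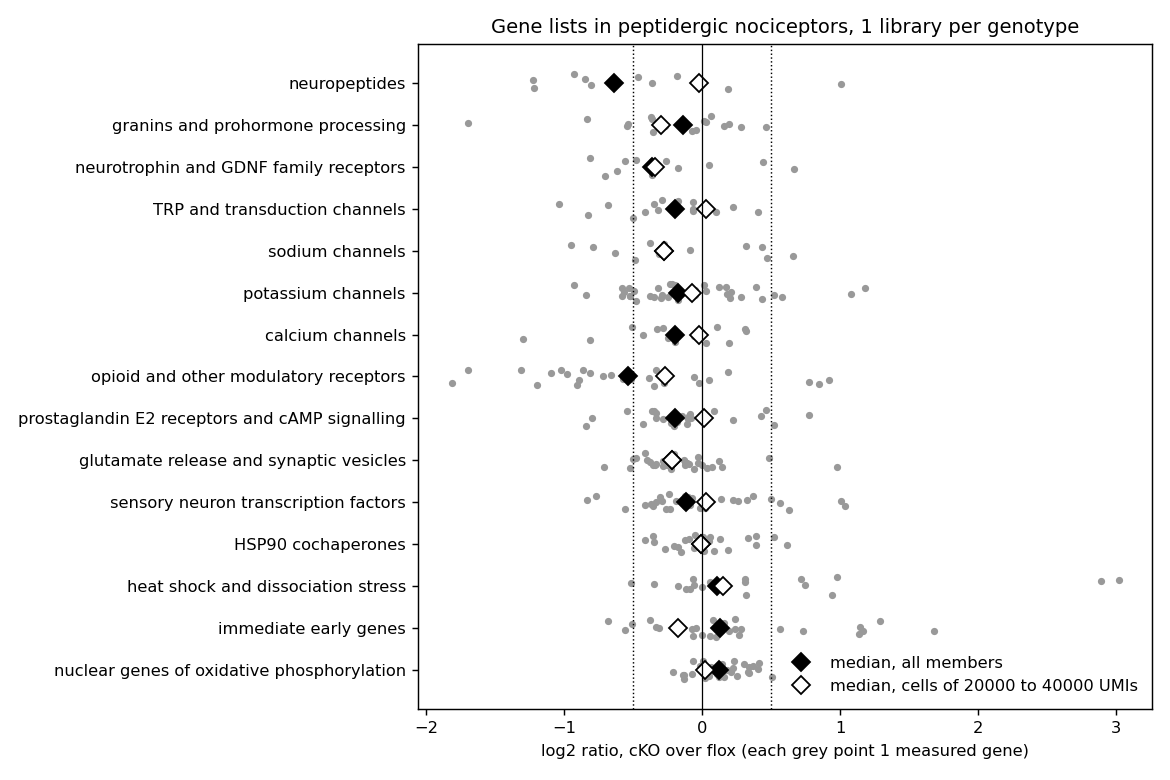
The horizontal axis is the log2 ratio of cKO over flox, each grey point is 1 measured gene of a list, filled diamonds are list medians over all peptidergic nociceptors and open diamonds those over cells of 20000 to 40000 UMIs. Dotted lines mark 0.5 log2. The neuropeptide median moves from -0.63 to -0.02 and that of modulatory receptors from -0.54 to -0.27.

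Most identity factors of sensory neurons were near level. Isl1 stood at 163 and 149 CPM, Pou4f1 at 87.1 and 83.0 CPM, Tlx3 at 172 and 174 CPM and Runx1 at 94.0 and 110 CPM. These are the homeodomain and Runt factors that set up sensory neurons and nociceptors. Of 30 measured factors 4 were higher and 3 lower, with a median of -0.11 (0.03 at matched depth). Zfhx3, a homeodomain and zinc finger factor that was low in these cells against other neurons, stood at 41.0 and 84.0 CPM (1.04, 0.85 to 1.23), and at 36.1 and 71.4 CPM at matched depth. Bcl11a stood at 40.8 and 22.9 CPM over all cells (-0.83) and at 44.3 and 35.1 CPM at matched depth (-0.33, -0.78 to 0.12). Zeb2, which lay at -0.77, was more abundant in non-neuronal barcodes (297 and 208 CPM) than in these cells (149 and 87.3 CPM). Genes of glutamate release and synaptic vesicles had 1 higher and 2 lower of 32 measured and a median of -0.21. Syn2, for synapsin II, was the lowest of them at 305 and 186 CPM (-0.71, -0.81 to -0.62), at 342 and 201 CPM at matched depth and at 299 and 194 CPM above 40000 UMIs.

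Ptges3 itself was higher in the cKO nociceptors, which the Dhh-Cre is not meant to recombine. It stood at 259 CPM in flox and 397 CPM in cKO cells (0.62, 0.54 to 0.70), and at 234 and 380 CPM at matched depth (0.70, 0.53 to 0.87). In the other neurons the ratio was 0.49 (0.46 to 0.52), and in non-neuronal barcodes, at 234 and 198 CPM, it was -0.24 (-0.31 to -0.17). A count at the 3′ end checks the deletion only where that end is removed, and the labels do not name the floxed exons. Of 26 measured HSP90 cochaperone genes 2 were higher, Ptges3 and Nudc (0.52, 0.42 to 0.63), and 0 were lower, with a median of -0.01.

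The inducible heat shock genes were among the genes with the highest ratios. Hspa1a stood at 27.5 CPM in flox and 223 CPM in cKO cells (3.02, 2.83 to 3.22), and Hspa1b at 7.36 and 54.5 CPM (2.89, 2.51 to 3.28). Both encode HSP70 and are near-identical copies, so their shares of the reads are uncertain. At matched depth Hspa1a stood at 32.6 and 219 CPM. The ratio was 2.65 (2.57 to 2.74) in the other neurons and 1.18 (1.14 to 1.22) in non-neuronal barcodes. Hspa1a was found in 10.7% and 59.4% of thinned nociceptors against 38.9% and 56.1% of non-neuronal barcodes, and unthinned in 44.7% and 77.6%. Of 20 listed heat shock and dissociation genes 6 (30%) were higher and 1 (5%) lower, against 6.07% and 10.3% of all measured genes. Their median was 0.11 (0.15 at matched depth). Hspb1 (0.94), Dnajb1 (0.71), Hmox1 (0.98) and Ddit3 (0.74) were the other higher ones and Bag3 (-0.52) the lower. Of 26 immediate early genes 7 (26.9%) were higher and 3 (11.5%) lower, against the same background, with a median of 0.13 (-0.17 at matched depth). Gadd45b stood at 30.3 and 73.9 CPM (1.29, 1.07 to 1.501), whereas Fos stood at 480 and 382 CPM and Jun at 405 and 428 CPM. Nuclear genes of oxidative phosphorylation lay close together, with 1 higher and 0 lower of 37 and a median of 0.12, and glycolysis genes had 0 higher and 2 lower of 20 with a median of -0.14.

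Over all measured genes, 706 were at least 0.5 log2 higher and 1196 at least 0.5 log2 lower in cKO cells, 16.4% of 11632 in either direction. Of the 706 higher genes 338 could be measured at 20000 to 40000 UMIs, and 149 of these (44.1%) were past the fold there while 49 had the opposite sign. Of the 1196 lower genes 625 could be measured there, 335 (53.6%) were past the fold and 34 had the opposite sign. Among the 10 highest by the rule were Lars2, for mitochondrial leucyl-tRNA synthetase, at 24.96 and 186 CPM (2.90, 2.70 to 3.11), and Tesc, for tescalcin, with 57 UMIs in 18 flox cells and 205 UMIs in 82 cKO cells. Lars2 was also 2.42 (2.34 to 2.49) higher in the other cKO neurons and 3.00 (2.92 to 3.07) in non-neuronal barcodes. Tesc lay at 2.40 (1.27 to 3.78) at matched depth, but above 40000 UMIs it stood at 6.46 and 7.07 CPM. Ccdc68 (24 and 135 UMIs), the neuronal membrane protein gene Lypd1 (27 and 129), Kcnip2 (29 and 126), which encodes a Kv4 binding protein, Baiap2l1 (14 and 89), the neurotrophin gene Ntf3 (20 and 80) and Ms4a3 (31 and 111) were the next. Ccdc68 and Kcnip2 were nearly level in the other neurons, at -0.17 and -0.09. The other 2 of the 10 were Mrgprd, whose level the rule limits (18 and 86 UMIs), and Uts2b, for urotensin II-related peptide, where 1 of 3 positive flox cells held 18 of 20 UMIs and 24 cKO cells held 200.

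The 10 lowest included Oprk1 and Cartpt, given above. Chrnb4, a nicotinic receptor subunit gene, had 105 UMIs in 39 flox cells and 14 in 12 cKO cells (-2.48, -3.40 to -1.67), and 24 and 8 UMIs at matched depth. Pvalb, for the calcium buffer parvalbumin, had 186 UMIs in 22 flox cells, 63 of them in 1, and 47 in 38 cKO cells. Pik3r1, for the regulatory subunit of PI3-kinase, was found in 194 flox and 242 cKO cells and stood at 242 and 111 CPM (-1.13, -1.25 to -1.01), at 238 and 129 CPM at matched depth, and at 247 and 184 CPM above 40000 UMIs. In the other neurons its ratio was -0.24 (-0.31 to -0.18). Cldn9, a claudin gene, had 171 and 41 UMIs, Abhd14b 203 and 58, Fam169b 98 and 20, and the protocadherin gene Pcdhb7 86 and 14. Gzma, for granzyme A of cytotoxic lymphocytes, had 130 UMIs in 1 flox cell and 0 in cKO, so the value rests on that cell.

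Against the other neurons of the same library, Gal and several less known genes marked these cells in both libraries. In flox cells 4.72% of 8604 genes were at least 1 log2 higher than in other neurons and 1.85% at least 1 log2 lower, and in cKO cells 2.11% and 1.15% of 7452. The genes are described and not tested, since the rule chose the cells by Calca and Tac1. Gal stood at 1157 against 82.4 CPM in flox (3.81, 3.76 to 3.86) and at 1018 against 132 CPM in cKO (2.95, 2.90 to 3.00). Adcyap1 stood at 497 against 45.5 CPM and at 276 against 50.4 CPM. Igfbpl1, for an IGF binding protein-like protein, stood at 22.8 against 0.96 CPM in flox (4.57) and at 18.4 against 1.61 CPM in cKO (3.52). Smr2, for a submaxillary gland protein, stood at 33.1 against 1.83 CPM and 16.2 against 1.69 CPM, Arhgap15, for a Rac GTPase-activating protein, at 34.2 against 2.17 CPM and 28.3 against 3.50 CPM, and Tmem100, a TRPA1 and TRPV1 adaptor, at 133 against 13.0 CPM and 84.2 against 13.6 CPM. The rest of the 10 were Traf3ip3, Cdhr1, Kcnv1 and Sez6, between 2.35 and 3.53 on the log2 scale. Each of the 10 had the smaller ratio over other neurons in the cKO library, which was not tested. Between the libraries at matched depth Smr2 (1.499), Igfbpl1 (0.62), Traf3ip3 (0.78), Sez6 (0.10) and Kcnv1 (0.041) had log2 ratios above 0, the first on 16 and 72 UMIs.

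Calca neurons without Tac1, 87 in flox and 110 in cKO, differed from these cells in part of that set. Gal stood there at 156 and 313 CPM, Adcyap1 at 64.0 and 62.4 CPM and Trpv1 at 9.48 and 18.2 CPM, all well under the levels in the Tac1 cells. Ptgir, at 44.9 and 50.3 CPM, and Kcnv1, at 30.0 and 26.4 CPM, were not. Nefh, the heavy neurofilament gene of large myelinated neurons, stood at 867 and 543 CPM there against 234 and 255 CPM in the Tac1 cells. Smr2 was split more evenly, with 15.7 and 11.8 CPM.

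Genes of non-peptidergic neurons were lower in these cells than in other neurons, while 2 of 3 lists for other kinds lay closer. Markers of C-low-threshold mechanoreceptors summed to 375 CPM in flox and 389 CPM in cKO cells against 926 and 795 CPM in other neurons. Somatostatin pruriceptor markers summed to 331 CPM in flox and 281 CPM in cKO cells against 359 and 302 CPM in other neurons, and those of myelinated mechanoreceptors and proprioceptors to 1509 and 1650 CPM against 2072 and 2385 CPM. Grik1, a kainate receptor gene of non-peptidergic neurons, stood at 64.0 CPM in flox and 115 CPM in cKO cells against 636 and 519 CPM in other neurons. Its ratio between libraries was 0.85 (0.69 to 1.00) over all cells and -0.29 (-0.60 to 0.02) at matched depth. Gfra2, the neurturin receptor gene, stood at 13.8 and 18.7 CPM against 69.6 and 61.3 CPM, and Ntrk3, for TrkC, at 20.8 and 18.4 CPM against 76.2 and 61.7 CPM. Ctxn3, Zfhx3, Rph3a, Tafa4, Ly86, Klhl5 and Acpp, the prostatic acid phosphatase gene of non-peptidergic neurons, were the rest of the 10 lowest, at -3.31 to -1.55 in either library. Of the non-peptidergic marker list 6 of 10 were measured, 3 higher and 0 lower in cKO cells, with a summed level of 312 CPM in flox and 394 CPM in cKO against 1331 and 1109 CPM in other neurons. The median of those 6 was 0.39 over all cells and -0.21 over the 5 measured at matched depth. Mrgprd, whose level the rule limits, is one of the 6 and had the highest ratio at 2.69 (18 and 86 UMIs). Neurons that the rule leaves out by Mrgprd, Sst, Nppb, Th or Slc17a8 are among the other neurons. The lower list levels here than there were thus in part set by the choice of cells. Per cell the markers took between 0 and 0.261% of UMIs in flox and between 0 and 0.169% in cKO.

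**Figure D5:**
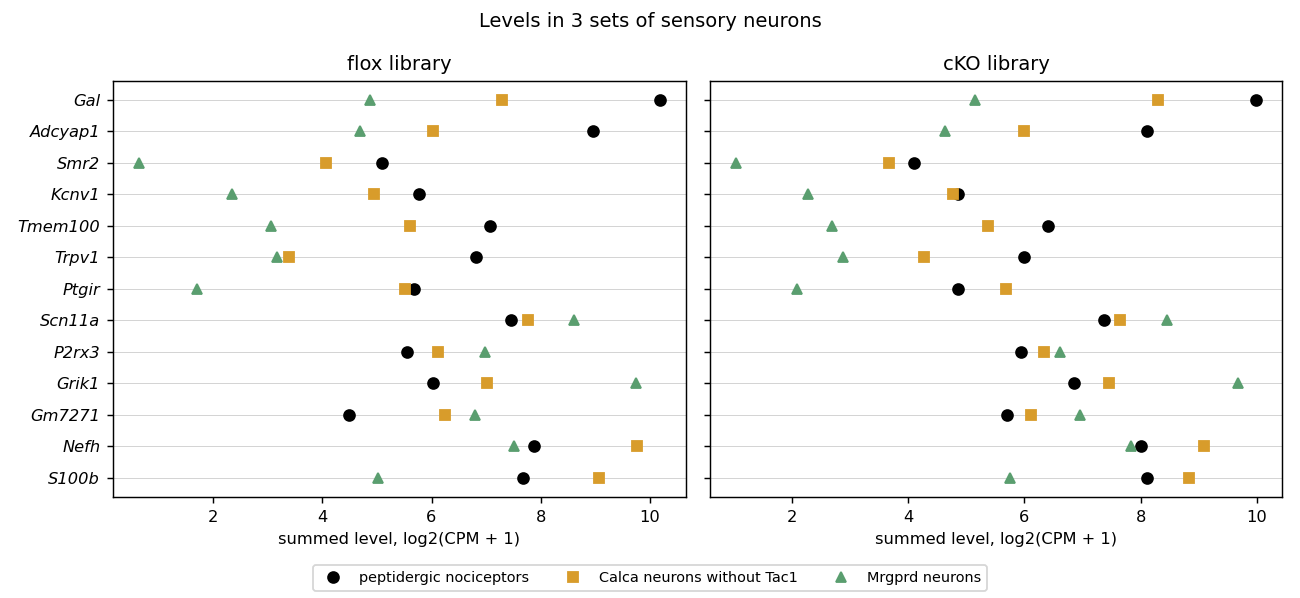
Summed levels, as log2 of CPM plus 1, of 13 genes in peptidergic nociceptors (circles), Calca neurons without Tac1 (squares) and Mrgprd neurons (triangles), for the flox library on the left and the cKO library on the right. Gal and Adcyap1 are highest in the peptidergic nociceptors in both libraries, Nefh in the Calca neurons without Tac1 (867 and 543 CPM) and Grik1 in the Mrgprd neurons (861 and 817 CPM).

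By the variance of counts over their mean, the highest values among the cells were those of peptide genes, Malat1, Tmsb10 and genes of glia. This measure tends to rise with the level of a gene, so its ranks favour abundant genes and do not give variation relative to level. In flox cells the thinned mean was 47.4 UMIs for Calca, 40.0 for Malat1 and 34.5 for Tmsb10, but 1.66 for Cartpt. Calca and Tac1 were also limited by the choice of cells. After thinning to 5000 UMIs the variance of counts over their mean (the Fano factor, 1 for counting noise alone) had a median of 1.10 in flox and 1.06 in cKO cells over 3612 genes. It was 25.8 and 13.8 for Calca, 24.0 and 7.1 for Tac1, 8.4 and 7.6 for Gal and 21.4 and 9.4 for Cartpt. S100a6, for a calcium-binding protein, reached 9.7 and 7.0. The Calca level ran from 20.1 to 439 UMIs per 10000 with a median of 70.9 in flox cells, and from 20.0 to 318 with a median of 38.5 in cKO cells. Gal ranged from 0 to 72.1 and from 0 to 112, with 19 flox and 40 cKO cells at 0. Tac1 ranged from 0.20 to 362 and from 0.40 to 101.

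Across cells, Gal followed Adcyap1 and ran against S100a6. Spearman's rho between thinned counts of Gal and Adcyap1 was 0.51 over 206 flox cells and 0.42 over 428 cKO cells, and between Gal and S100a6 it was -0.60 and -0.42. Gal and Tac1 gave 0.34 and 0.38, Calca and Calcb 0.44 and 0.35, whereas Calca and Gal gave -0.01 and 0.13. The neurofilament genes Nefm and Nefl ran together at 0.57 and 0.63, and Nefh with S100b, a calcium-binding protein of large sensory neurons and glia, at 0.32 and 0.41, while Gal and S100b gave -0.31 and -0.36. Each of these pairs other than Calca and Gal had the same sign in both libraries. The cells of a library share its preparation, and no p is given for these values.

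Markers of other cells were present in both libraries, and among non-neuronal kinds those of satellite glia were the most abundant in cKO cells. Of 13 measured Schwann cell markers 0 were higher and 7 (53.8%) lower in cKO cells, against 10.3% of all measured genes lower. Their summed level was 2138 CPM in flox and 1417 CPM in cKO against 45655 and 11540 CPM in non-neuronal barcodes. Their share per cell ran from 0.006% to 6.08% in flox and from 0.004% to 1.34% in cKO. Without the cells in which glial markers took at least 1% of UMIs, which left 182 flox and 409 cKO cells, the Schwann median went from -0.68 to 0.04. Those glial markers include the Schwann list itself, so this shift was in part set by the choice of cells. The 12 satellite glia markers had 2 higher and 0 lower, with 1834 and 3086 CPM, led by Apoe at 696 and 1757 CPM and Fabp7 at 312 and 511 CPM. At matched depth Apoe stood at 1003 and 1569 CPM (0.65, 0.56 to 0.73), but Fabp7 turned to -0.12 at 587 and 542 CPM. In non-neuronal barcodes the satellite glia markers summed to 14943 and 11204 CPM. Apoe was found in 55.8% and 91.4% of thinned cells against 73.9% and 80.8% of non-neuronal barcodes, and unthinned in 78.2% and 95.3%. Of 6 measured blood genes 5 were lower, but 1 flox cell held 34.8% of the Hba-a1 UMIs, and without the cells of highest doublet score the median was 2.29 instead of -1.004. Gfap and Mobp had 72 and 63 UMIs in flox and 0 in cKO cells, at least 17.8-fold and 15.6-fold lower against a floor of 3 counts over the group. Of 6 measured oligodendrocyte and astrocyte markers 0 were higher and 4 lower, with 135 and 76.9 CPM in all. In non-neuronal barcodes Gfap and Mobp stood at 163 and 400 CPM in flox and 0.57 and 0.19 CPM in cKO. Fibroblast markers had 4 higher and 2 lower of 12 with 685 and 695 CPM, macrophage markers 0 of 6 in either direction with 41.3 and 37.7 CPM, and endothelial and mural markers 2 higher and 3 lower of 5 with 53.0 and 65.3 CPM. All 12 proliferation genes were measured, 5 (41.7%) higher and 0 lower, against 6.07% of all measured genes higher. They summed to 200 and 266 CPM against 1180 and 1444 CPM in non-neuronal barcodes. The part of these other cells in the differences between the libraries was not tested.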

How the data were processed

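UMI counts per gene and barcode were used as the authors deposited them, in 1 filtered 10x matrix per library (Single Cell 3′ v3.1 chemistry, per the labels' protocols). The matrices name cellranger 6.1.2, per the file headers, while Cell Ranger 5.0.1, Scanpy and mm10 stand in the submitters' processing notes. Use of intronic reads, and any removal of ambient RNA or doublets by the authors, are not given in the sources used here. Positions follow GENCODE vM21 (GRCm38), and upstream windows were taken from RefSeq (GRCm38.p6), where 6 of 7 peptide and granin genes looked up had an entry.

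The members and gene lists were chosen with earlier results of these data known. UMIs were summed over the chosen cells of each library. Levels have exact Poisson intervals, ratios exact conditional binomial intervals and shares exact Clopper-Pearson intervals, all at 95%, and UMIs of 1 library are not replicates. No test between the libraries was made and no p is given. Genes with 50 UMIs or more in both libraries together were called measured, and such a gene counted as higher or lower at 0.5 log2. Of 672 listed genes in 35 lists 669 were found. Thinning drew 5000 UMIs per cell without replacement (seed 1). Scrublet's automatic threshold called 0 of 8714 flox and 2 of 8435 cKO cells, so it did not work as a caller. Doublets were therefore kept, and an alternative leaves out the highest scores (0.8% per 1000 cells), which hold 21 flox and 8 cKO nociceptors.

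Genes were named by a rule: the markers and genes of the choice of cells, Ptges3, the sodium channel alpha subunits and Ptger1 to Ptger4, and the 2 highest and 2 lowest of each list with at least 5 measured genes. It added the 10 highest and 10 lowest of genes with at least 100 UMIs by the interval bound nearest to 0 (without mitochondrial, ribosomal, haemoglobin, sex-linked and predicted genes and those over 5-fold higher in non-neuronal barcodes), and the 10 highest over other neurons. The 10 lowest against other neurons, and listed genes named beyond this rule, were chosen after their values were seen. Some listed genes are not reported here.

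Summed counts were simulated for 11620 genes as independent Poisson draws, the model that the intervals assume. The intervals covered the true ratio in 95.7%, and 2.77% of unchanged genes passed 0.5 log2. A 1.5-fold difference passed in 78.1% and a 2-fold one in 99.0%. The draws held no variation between cells or libraries, whereas the Fano factor of Calca was 25.8 in flox and 13.8 in cKO cells. These rates thus hold for counting error only and give no error rate for the calls in these data. Alternatives covered scaling, depth, the limits of the choice of cells, doublets, glial markers and shared barcodes. TMM factors came from edgeR 4.0.16 and size factors from DESeq2 1.42.0 in R 4.3.3. The rest used scanpy 1.11.5, scipy 1.17.1, pandas 2.3.3, numpy 2.4.6 and matplotlib 3.10.9 in Python 3.11.15.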

Additional observations from a re-analysis of the deposited data

Results flagged for a closer look

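Each gene named by the rule that was measured in both kinds of neuron was compared between peptidergic nociceptors and Mrgprd neurons, 169 genes in all, and 12 of them were at least 0.5 log2 apart between the libraries in opposite directions. With 1 library per genotype the difference between the 2 kinds of neuron was not tested, and the values are log2 ratios of cKO over flox. Many of the genes were named for having the highest or lowest ratio of a list in the nociceptors. The share of all measured genes with opposite directions was not computed, so 12 of 169 has no background.

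The genes lower in cKO nociceptors and higher in cKO Mrgprd neurons were 5. Pcdhb7, a protocadherin gene, lay at -2.19 against 0.71. Pvalb lay at -1.55 against 3.10, with 157 and 721 UMIs in the Mrgprd neurons. Ptgir, the prostacyclin receptor gene, lay at -0.84 against 0.53, on 80 and 62 UMIs in the Mrgprd neurons, which hardly express it. Bcl11a lay at -0.83 against 1.01 and Fgf11 at -0.79 against 1.18, on 59 and 64 and on 37 and 45 UMIs in the Mrgprd neurons. In the nociceptors Fgf11 rested on 49 and 21 UMIs (-1.60 to -0.03), and 63 of the 186 flox UMIs of Pvalb were in 1 cell. The interval of Ptgir in the Mrgprd neurons was 0.03 to 1.03.

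The other 7 were higher in cKO nociceptors and lower in cKO Mrgprd neurons. H2-K1, a class I histocompatibility gene, lay at 0.82 against -0.80, and Ramp2 at 0.85 against -0.62. The fibroblast genes Lum and Mfap5 lay at 0.99 against -0.88 and at 1.18 against -0.69. Rarres1 lay at 1.01 against -0.63, Anxa1, the annexin A1 gene, at 1.28 against -0.80, and Cdk1, a cell cycle kinase gene, at 1.69 against -0.54. In nociceptors of 10000 to 40000 UMIs 5 of the 7 no longer lay higher in cKO, with H2-K1 at -0.027, Lum at -0.79, Mfap5 at -0.48, Ramp2 at -0.31 and Rarres1 at -0.053. Cdk1 lay at 1.18 there, and Anxa1 had too few UMIs to be measured, with a ratio below 0 in each of 4 depth ranges. Lum, Mfap5, Anxa1, Ramp2 and Cdk1 were all more abundant in non-neuronal barcodes than in the nociceptors, for Mfap5 at 445 CPM in flox and 1186 CPM in cKO against 13.6 and 30.8 CPM.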

How the results depend on the processing

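No paired analysis was possible because each genotype has 1 library. Depth differs between the libraries and is the limit that bears on most values: shallow genes could not be measured at matched depth, and the 22 cKO cells above 40000 UMIs give wide intervals. With TMM factors 823 genes were higher and 1014 lower, and with median-of-ratios factors 844 and 984, against 706 and 1196. The genes higher in cKO members numbered 1190 at a minimum of 20 UMIs, 3458 with no minimum and 170 at 1 log2, and 463 at 20000 to 40000 UMIs or 394 there with Calca at 0.4%. Both of these last settings were chosen after seeing the data. The genes lower in cKO members numbered 4068 with no minimum, 144 at 1 log2 and 2669 with each cell counted equally, where shallow cells weigh as much as deep ones. The minimum of UMIs and the cells used change how many genes are measured, so these counts cannot be compared as shares. Of the 706 higher genes, 338 were measured at 20000 to 40000 UMIs. The flox share was 10.8% with the choice of cells on thinned counts, 9.08% with Calca at 0.4% and 15.3% at 20000 to 40000 UMIs. The cKO share was 9.02% with Calca at 0.4%, 16.0% with Tac1 at 5 UMIs and 15.3% at 20000 to 40000 UMIs.

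Of 111 named genes past 0.5 log2, 106 stayed past it with TMM factors, and of 61 measured at 20000 to 40000 UMIs 34 did. Log2 ratios that changed sign are given here, and the cause was not tested beyond each setting's own construction. Thinning the cells gave -0.13 for Tafa4. At 10000 to 40000 UMIs they were -0.069 for Fabp7, -0.027 for H2-K1, -0.79 for Lum, -0.48 for Mfap5, -0.34 for Ntrk2, -0.31 for Ramp2, -0.053 for Rarres1 and 1.10 for Smr2. At 20000 to 40000 UMIs they were -0.12 for Fabp7, -0.29 for Grik1, 0.041 for Kcnv1, -0.79 for Mfap5, -0.80 for Ntrk2, -0.76 for Ramp2, -0.15 for Rarres1, 0.10 for Sez6 and 1.499 for Smr2. With Calca at 0.4% there too they were -0.51 for Acpp, 0.069 for Calca, 0.14 for Cdhr1, 0.10 for Cntnap2, -0.47 for Grik1, -2.79 for Mfap5, -1.55 for Ntrk2, -0.13 for Rarres1, 0.28 for Sez6, 1.40 for Smr2 and 0.10 for the neuropeptide median, or 0.18 without Calca and Tac1. Calca at 0.4% alone gave -0.31 for Calb1 and -0.33 for Ptgdr, and the choice on thinned counts -0.026 for Ptgdr. Without the highest Scrublet scores they were 2.98 for Hba-a1, 2.88 for Hbb-bt and 2.29 for the blood median. Without cells rich in glial markers the Schwann median was 0.040.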

Other observations

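Some listed genes not yet described differed between the libraries. Genes that divide Calca neurons into kinds had 3 (9.68%) higher and 13 (41.9%) lower of 31 measured, against 6.07% and 10.3% of all measured genes. Their median in cKO over flox nociceptors was -0.37 (-0.12 at 20000 to 40000 UMIs). Their highest was Spp1, the osteopontin gene, with 7 UMIs in 3 flox cells and 86 UMIs in 25 cKO cells, and with 4 and 3 UMIs at 20000 to 40000 UMIs. In non-neuronal barcodes Spp1 stood at 39.4 and 68.1 CPM. Markers of myelinated mechanoreceptors and proprioceptors had 3 higher and 2 lower of 12 measured, with a median of 0.21. Those of C-low-threshold mechanoreceptors had 2 higher and 1 lower of 7, the lower one Th, a gene of the rule (102 and 44 UMIs). Those of somatostatin pruriceptors had 1 higher and 0 lower of 5.

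Growth and injury genes were close to level, with 2 higher and 1 lower of 28 measured and a median of -0.10. Gap43, a growth cone protein gene, stood at 1661 and 1590 CPM, and Atf3, a marker of injured neurons, at 88.7 and 105 CPM. Lmna, for lamin A, was higher at 124 and 219 CPM (0.82, 0.71 to 0.93). Interferon response genes had 3 higher and 1 lower of 17 measured, with Ifit1 at 12 and 66 UMIs. Of 7 measured genes of prostaglandin synthesis and transport 2 were higher, Ptges3 and Ptgds, and Ptges2 stood at 40.9 and 40.4 CPM.

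Hox genes, which hold the axial level of a neuron, were compared because the ganglia came from all levels. Over all measured genes 6.07% were higher and 10.3% lower. The 7 measured caudal genes had 0 higher and 2 (28.6%) lower and a median of -0.23. The 12 measured rostral genes had 1 (8.33%) higher and 4 (33.3%) lower and a median of -0.38. Hoxd3 was the lowest with 53 and 10 UMIs, and Hoxa9 stood at 42.0 and 27.3 CPM.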
